A study of Mus musculus with 6 samples.

Results

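The genes described here are the Wnt ligands, their receptors and the proteins that modulate them, 61 of the 54232 genes counted by RNA-seq in mouse oviductal smooth muscle cells. They were chosen by name, as the protein-coding genes called Wnt, Fzd, Sfrp, Dkk or Rspo with a number, together with Porcn, Lrp5, Lrp6, Ror1, Ror2, Ryk, Frzb, Wif1, Lgr4, Lgr5, Lgr6, Znrf3, Rnf43, Ctnnb1, Lef1, Tcf7, Tcf7l1, Tcf7l2, Axin2 and Nkd1. By role there were 19 Wnt ligands with Porcn, 15 receptors, 10 secreted inhibitors, 9 genes of the R-spondin axis, 5 genes for β-catenin and its DNA-binding partners, and 2 feedback genes.

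To find genes that depended on Pbrm1 in oviductal muscle, primary cells were prepared on day 2 of pregnancy from mated females of 8 to 12 weeks, and 3 libraries were made for WT and 3 for Pbrm1 cKO mice. Pbrm1 encodes a bromodomain subunit of the PBAF chromatin remodeling complex. The labels do not give the alleles of the oviduct donors. In the study's uterine work cKO mice carried floxed Pbrm1 alleles and a cre under control of the progesterone receptor locus, which is active in many cells of the reproductive tract and not only in muscle, and a legend names floxed mice as controls where the labels say WT. The cells were dispersed with enzymes, filtered and plated for some hours in serum, with no sort for muscle. Nothing says whether libraries came from separate animals or pools, so the p-values below measure the spread between these libraries, which may be technical in part.

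Wnt proteins are secreted, lipid-bearing signals. They bind Frizzled receptors together with Lrp5 or Lrp6, which stabilizes β-catenin and lets it act with TCF and LEF factors on target genes, or they act without β-catenin through Ror1, Ror2 and Ryk on cell shape and polarity. Secreted inhibitors of the SFRP and Dickkopf families hold Wnts or Lrp5 and Lrp6 back, R-spondins strengthen the signal by taking the receptor-degrading ligases Znrf3 and Rnf43 off the membrane, and in the embryo Wnt4, Wnt5a and Wnt7a are needed to form and pattern the ducts from which the oviduct arises.

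Pbrm1 itself was at 170.1, 183 and 172 CPM in WT and 43.5, 50.7 and 42.7 CPM in cKO libraries, where CPM are read counts scaled to libraries of equal effective size. It fell without overlap of the groups, and cKO libraries kept 26% of the WT level (log2 fold change -1.94 with an SE of 0.0637, edgeR adjusted p = 9.1e-11). Libraries held 15390818 to 18947947 counts, so that 3 counts, taken as the floor of detection, came to 0.159 to 0.193 CPM. Among all genes called, cKO replicate 2 was the cKO library nearest to the WT mean in 56.6%, and this was so for 17 of the 27 Wnt genes called.

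Markers of the cell types present also differed between the groups. Summed CPM of 12 smooth muscle markers ran from 3677 to 3759 in WT and from 4634 to 5241 in cKO, with 7 of 12 higher and 1 lower. All of the muscle markers passed the filter on low counts. Fibroblast markers summed to 6496 to 7214 CPM in WT and 9707 to 9974 CPM in cKO, with 7 of 10 higher and 1 lower. Leukocyte markers summed to 678 to 727 CPM in WT and 966 to 1045 CPM in cKO, and all 9 that passed the filter were higher, while Cd3e, Cd79a and Nkg7 did not pass it. Muscle, fibroblast and leukocyte sums were thus higher in every cKO library than in any WT library. The same held for the epithelial and mesothelial sums given next. Epithelial markers summed to 1041 to 1132 CPM in WT and 1188 to 1324 CPM in cKO, with 6 of 12 higher and 1 lower. Endothelial markers summed to 381 to 405 CPM in WT and 333 to 345 CPM in cKO, although 3 of 10 were called higher and 1 lower. Mesothelial markers, with 1 of 6 higher and 3 lower, summed to 325 to 335 CPM in WT and 349.8 to 381 CPM in cKO. Of the oocyte and embryo markers, Zp2, Zp3, Oosp1 and Zar1 were at 0 in every library, and the summed level of all 8 was at most 1.24 CPM. Called in either direction were 43.7% of all genes tested and 47.3% of the protein-coding genes tested. Among the markers tested, the share was 40% for endothelial, 58.3% for epithelial and 66.7% for muscle markers. The share was 66.7% for mesothelial, 80% for fibroblast and 100% for leukocyte markers tested. The epithelial count rested on single libraries, since 3 markers were higher without WT replicate 1 and 4 without cKO replicate 1 or cKO replicate 3. The part of these shifts in the results below was not tested, and in such bulk libraries fewer cells of a type cannot be told apart from less RNA per cell.

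Of the 61 Wnt genes, 45 passed the filter on low counts and 27 were called at an adjusted p under 0.05 in edgeR's quasi-likelihood test, 13 higher and 14 lower in cKO. That is 60% of the members tested, beside 43.7% of all genes tested and 47.3% of the protein-coding genes tested, and it is given as a description, with no test of the set. The members were also chosen with earlier results of these data known. Called with an absolute log2 fold change of at least 0.5 were 15 members, beside 16.8% of all genes tested. The groups did not overlap for 31 of the 45, beside 53.5% of all genes. The median log2 fold change of the 45 was 0.02, and that of all genes tested was 0.00. The sharpest changes were in the secreted proteins, with Sfrp2 and Wnt10b lower and Sfrp1 and Rspo3 higher, while Fzd1 was the receptor that rose most.

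**Figure D1:**
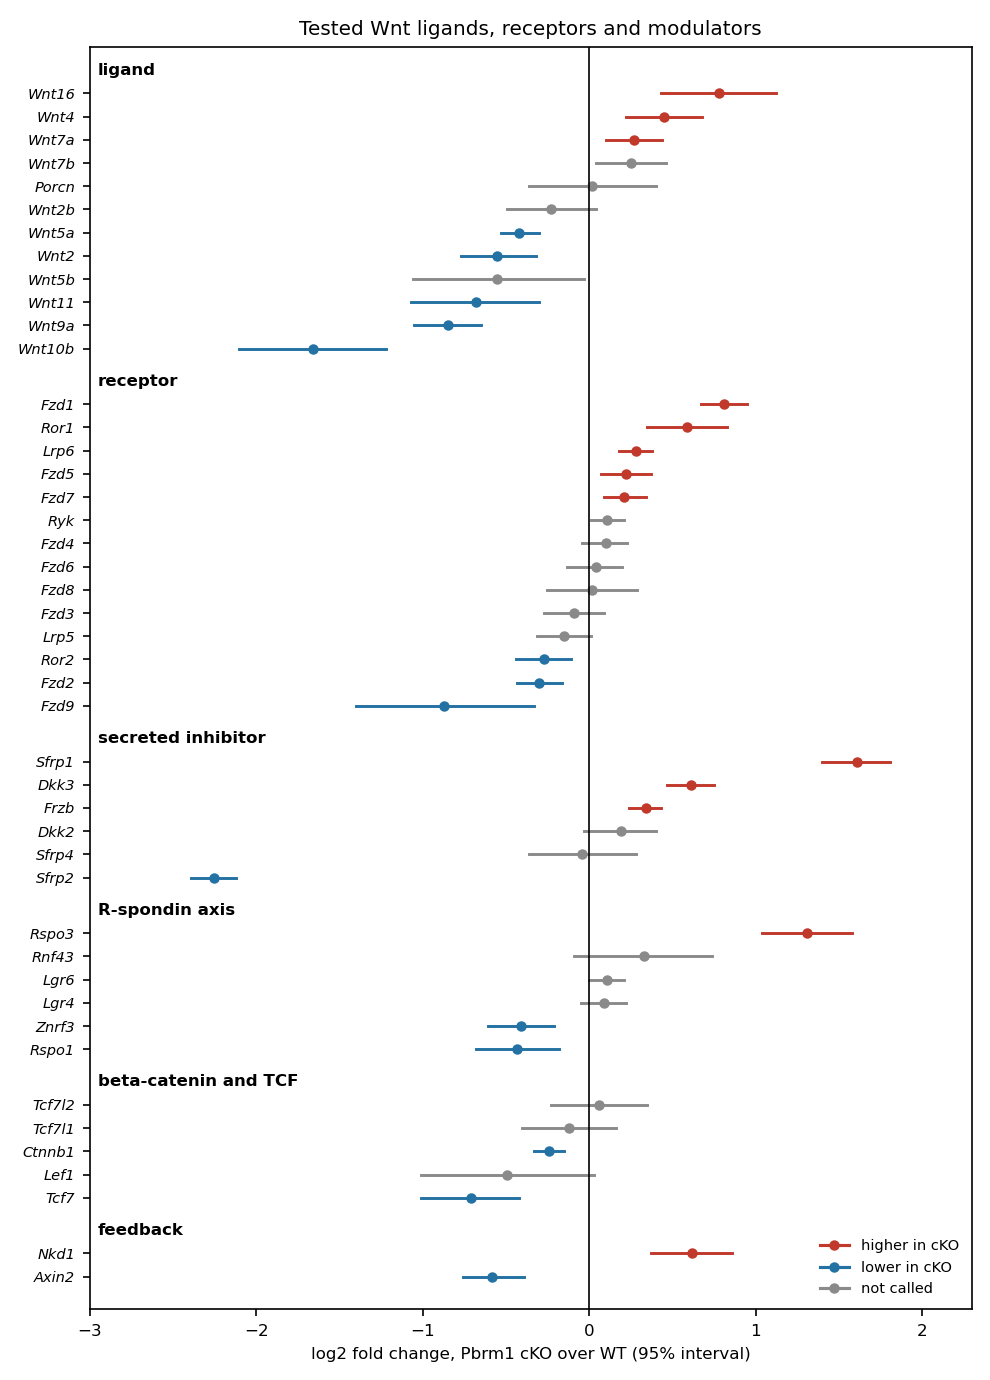
Log2 fold change of each of the 45 Wnt genes tested, Pbrm1 cKO over WT (x axis), with bars for the 95% interval from the edgeR fit, grouped by role and coloured by call at an adjusted p under 0.05. Each role but the β-catenin group holds members called higher and members called lower, and Sfrp2 at -2.25 and Sfrp1 at 1.61 are at the ends of the range.

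To show what the DNA just ahead of these genes looks like, promoter windows are given for 4 genes. Of the 15 members called with an absolute log2 fold change of at least 0.5, 7 had matching starts. Their RefSeq start was at the same base as the gene's start in the deposited table. The others had a RefSeq start at another base or, as with Sfrp1, Rspo3 and Dkk3, no window. The largest rises of the set, in Sfrp1 and Rspo3, are therefore not shown. Windows shown are those of the largest 2 falls and largest 2 rises among the 7. Each is the 250 bases before the start, from RefSeq on GRCm38.p6, written 5′ to 3′ on the gene's strand with CG dinucleotides in capitals.
Sfrp2 (chr3:83766071-83766320, plus strand): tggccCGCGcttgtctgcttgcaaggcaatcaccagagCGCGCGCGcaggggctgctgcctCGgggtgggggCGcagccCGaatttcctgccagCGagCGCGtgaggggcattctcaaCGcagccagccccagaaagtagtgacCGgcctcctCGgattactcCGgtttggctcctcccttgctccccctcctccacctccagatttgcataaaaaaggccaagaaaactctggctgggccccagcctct
Wnt10b (chr15:98778151-98778400, minus strand): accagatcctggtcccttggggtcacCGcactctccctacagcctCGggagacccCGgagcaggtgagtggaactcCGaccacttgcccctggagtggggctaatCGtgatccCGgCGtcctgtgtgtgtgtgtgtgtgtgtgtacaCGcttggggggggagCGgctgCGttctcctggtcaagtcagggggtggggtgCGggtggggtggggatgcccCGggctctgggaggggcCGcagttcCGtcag
Wnt16 (chr6:22287977-22288226, plus strand): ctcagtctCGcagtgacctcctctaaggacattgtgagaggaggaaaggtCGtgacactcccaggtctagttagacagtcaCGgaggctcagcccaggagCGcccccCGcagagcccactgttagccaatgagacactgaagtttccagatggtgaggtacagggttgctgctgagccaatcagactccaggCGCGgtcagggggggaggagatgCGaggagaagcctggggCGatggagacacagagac
Ror1 (chr4:100095541-100095790, plus strand): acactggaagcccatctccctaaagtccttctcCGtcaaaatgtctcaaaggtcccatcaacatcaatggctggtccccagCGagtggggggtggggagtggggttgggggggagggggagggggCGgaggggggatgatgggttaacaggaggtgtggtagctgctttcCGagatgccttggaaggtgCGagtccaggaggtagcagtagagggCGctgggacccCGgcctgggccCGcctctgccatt

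The Sfrp2 window held 16 CG pairs, the Wnt10b window 14, the Wnt16 window 9 and the Ror1 window 8. All of them were above the median of 6 over the 32851 promoter windows of the annotation, and the G and C share was 63.6%, 66.8%, 59.2% and 62.4%, against a median of 52.4%. This was a property of most of the gene set, since the 52 windows found for 42 of the 61 members had a median of 20.5 CG pairs and 66.4% G and C. Windows with many CG pairs were found for members called in either direction, such as Wnt4 (higher, 44) and Wnt9a (lower, 48). The TCF and LEF motif was searched on both strands with the spelling CTTTGAA, the spelling CTTTGAT, the spelling CTTTGTA or the spelling CTTTGTT. None of the windows shown held it, 6 of the 52 member windows (11.5%) did, and so did 14.8% of all windows. A letter match is only a description of these windows.

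Among the Wnt ligands the data showed a change in composition. Of 19 ligands, 11 passed the filter, 5 were lower, 3 were higher, and the median log2 fold change was -0.42. Calls in either direction made up 72.7% of those tested, beside 43.7% of all genes tested and 47.3% of the protein-coding genes tested. Wnt10b, a ligand of the β-catenin branch that is known to hold back fat cell formation, was at 4.31, 4.92 and 3.92 CPM in WT and at 1.63, 1.01 and 1.54 CPM in cKO. All cKO libraries were well below all WT libraries, with means of 1.39 ± 0.337 in cKO and 4.38 ± 0.502 CPM in WT (SD, n = 3), or 31.8% of the WT level. The log2 fold change of -1.66 (SE 0.204, edgeR adjusted p = 2.2e-05) was the largest among the ligands.

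Wnt9a, which takes part in joint formation, was at 26.8, 26 and 22 CPM in WT and 13.8, 14.9 and 12.7 CPM in cKO. The groups did not overlap, and cKO means reached 55.3% of those in WT libraries (log2 fold change -0.85, SE 0.0942, edgeR adjusted p = 8.8e-06). Wnt11, a ligand that acts mainly without β-catenin, was at 9.04, 7.86 and 6.91 CPM in WT and 3.37, 5.99 and 5.47 CPM in cKO. The lowest value was that of cKO replicate 1, and the other cKO libraries were also below WT controls (log2 fold change -0.68, SE 0.179, edgeR adjusted p = 0.00739). Wnt2, known for its part in lung and vessel development, was at 18.7, 17.1 and 17.8 CPM in WT and 10.7, 14.2 and 11.6 CPM in cKO. Here cKO replicate 2 was the nearest to WT, still without overlap (log2 fold change -0.55, SE 0.104, edgeR adjusted p = 0.000813).

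Wnt16, a ligand best known for its effect on bone mass, moved the other way. It was at 2.36, 3.31 and 3.34 CPM in WT and 5.17, 4.88 and 5.47 CPM in cKO. All cKO libraries were above WT, with a cKO mean at 172% of the WT one (log2 fold change 0.78, SE 0.162, edgeR adjusted p = 0.00158). Wnt4 was called higher as well, at 33.4, 33.6 and 31.1 CPM in WT and 49, 35.2 and 50.3 CPM in cKO. Its cKO libraries were uneven, since replicate 2 was only just above WT controls (log2 fold change 0.45, SE 0.108, edgeR adjusted p = 0.004), and without that library the log2 fold change was 0.61. Wnt7a, which patterns the female duct, rose by less (log2 fold change 0.27, edgeR adjusted p = 0.0148), and that call was lost with DESeq2 (adjusted p = 0.0555) and without WT replicate 3 (edgeR adjusted p = 0.0672).

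Per exon length, the most abundant ligand in WT was Wnt5a, the main ligand of the Ror receptors. It was at 110.0, 109 and 103 CPM in WT and 81.9, 84.3 and 75 CPM in cKO, which came to 13.7 ± 0.46 and 10.3 ± 0.616 FPKM (CPM per 1000 bases of exon, SD, n = 3). The fall was small but the groups were well apart (log2 fold change -0.42, SE 0.0536, edgeR adjusted p = 3.2e-05). Next in WT on the FPKM scale were Wnt2 at 7.92 ± 0.373, Wnt4 at 7.8 ± 0.334 and Wnt9a at 7.49 ± 0.772, which lay within the spread of each other. Then came Wnt7a at 4.86 ± 0.266, with the remaining ligands at or below the 2.46 FPKM of Wnt7b. In cKO that order shifted, with Wnt4 at 10.7 ± 1.99 FPKM within the spread of Wnt5a, followed by Wnt7a at 5.85 ± 0.157, Wnt2 at 5.4 ± 0.804 and Wnt9a at 4.14 ± 0.335 FPKM. Summed over all ligands, the level was 52.9, 51.9 and 47.9 FPKM in WT and 44.8, 43.6 and 44.4 FPKM in cKO. Every cKO sum was below every WT sum, and Wnt4 made up 15.3% of it in WT and 24.1% in cKO, whereas Wnt9a went from 14.7% to 9.36%.

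Wnt5b (-0.55), Wnt7b (0.25) and Wnt2b (-0.23) were not called (log2 fold changes, edgeR adjusted p from 0.0515 to 0.154), nor was Porcn, the enzyme that attaches the lipid to Wnts (log2 fold change 0.02, 95% interval -0.36 to 0.40). The remaining 8 ligands did not pass the filter. Wnt3, Wnt3a and Wnt8b had no count in any library, and the highest counts were 6 for Wnt6, 3 for Wnt10a, 2 for Wnt1, 2 for Wnt8a and 1 for Wnt9b. These ligands were not detectable, or barely, at this depth.

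Some Wnt genes are old neighbours in the genome, and the pairs differed in use. Wnt10b (GRCm38 chromosome 15, 98770712 to 98778150, minus strand) lies 11707 bases from Wnt1, and they reached at most 92 and 2 counts in a library. Wnt9a (chromosome 11, 59306928 to 59333552, plus strand) lies 16176 bases from Wnt3a, with at most 486 and 0 counts. In the pairs Wnt6 with Wnt10a (chromosome 1, 6194 bases apart) and Wnt9b with Wnt3 (chromosome 11, 24329 bases apart) neither member passed the filter. Wnt10b and Wnt9a, which had the largest falls among the ligands, were each the expressed member of a pair whose partner was near 0 in WT and in cKO.

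**Figure D2:**
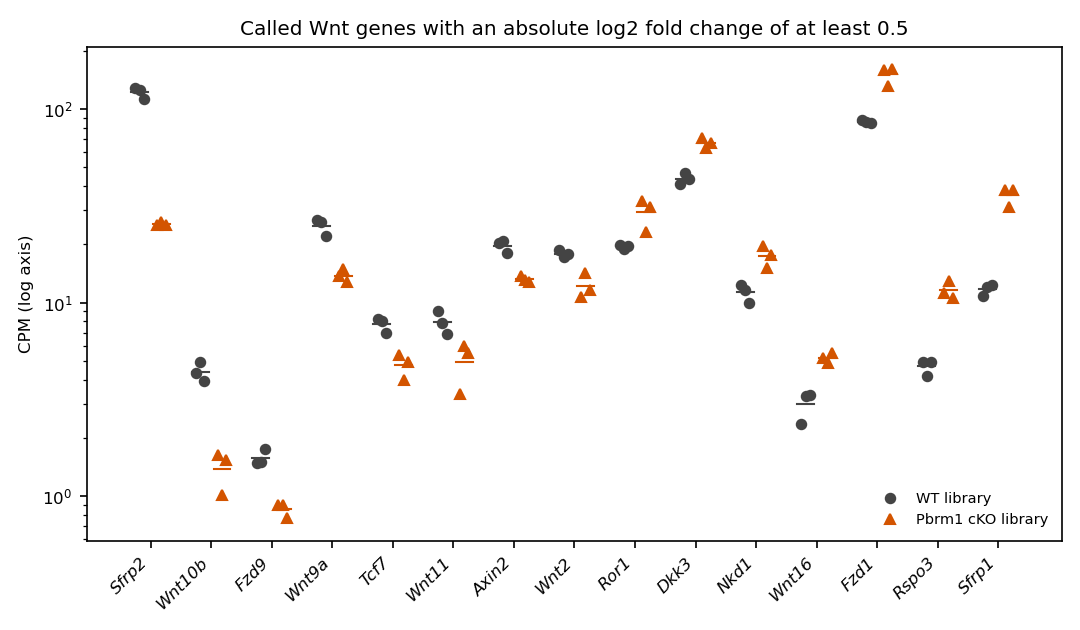
Normalized CPM (y axis, log scale) of the 15 Wnt genes called with an absolute log2 fold change of at least 0.5 (x axis), with a circle for each WT library, a triangle for each Pbrm1 cKO library and a line at each group mean. The genes are ordered by log2 fold change from Sfrp2 (-2.25) to Sfrp1 (1.61), and no gene has a cKO library within the range of the WT libraries.

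Among the receptors, 14 of 15 passed the filter, 5 were higher and 3 lower, and the log2 fold changes had a median of 0.07. The share called was 57.1%, beside 43.7% of all genes tested and 47.3% of the protein-coding genes tested. Fzd1, a broadly expressed Frizzled that couples to β-catenin, was at 87.6, 85.4 and 84.5 CPM in WT and 159.6, 132 and 159.8 CPM in cKO. The WT libraries lay close together and all cKO libraries were far above them, for a mean at 175% of the WT one (log2 fold change 0.81, SE 0.0661, edgeR adjusted p = 5.4e-07). Ror1, a receptor tyrosine kinase-like protein that binds Wnt5a, was at 19.9, 18.9 and 19.7 CPM in WT and 33.5, 23.2 and 31.3 CPM in cKO. Again cKO replicate 2 was the lowest of its group while above WT controls (log2 fold change 0.59, SE 0.112, edgeR adjusted p = 0.000836). Its relative Ror2 fell, though by less than 0.5 on the log2 scale (-0.27, edgeR adjusted p = 0.00863).

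Fzd9 was scarce, at 1.48, 1.5 and 1.76 CPM in WT and 0.9, 0.902 and 0.772 CPM in cKO, or 12 to 30 counts per library. Its cKO libraries were all below WT controls (log2 fold change -0.87, SE 0.25, edgeR adjusted p = 0.0124), but DESeq2 gave an adjusted p of 0.071. Smaller changes were called for Lrp6, the co-receptor (0.28), and for Fzd5 (0.22), Fzd7 (0.21) and Fzd2 (-0.30) on the log2 scale, of which Fzd5 was lost without WT replicate 2, WT replicate 3 or cKO replicate 1 (edgeR adjusted p from 0.0623 to 0.101). Lrp5, the other co-receptor, was not called (log2 fold change -0.15, 95% interval -0.31 to 0.01). Fzd3, Fzd4, Fzd6 and Fzd8 had log2 fold changes between -0.09 and 0.10 and were not called, and Fzd10, with 6 to 12 counts per library, did not pass the filter.

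The receptor with the highest level per length was Ryk, an atypical Wnt receptor with a kinase-like domain. Ryk was at 164, 168 and 171 CPM in WT and 176, 178 and 188 CPM in cKO, or 36.9 ± 0.774 and 39.9 ± 1.48 FPKM (SD, n = 3). The groups did not overlap, yet the difference was small and was not called (log2 fold change 0.11, SE 0.045, edgeR adjusted p = 0.064). The Frizzled genes together were at 71.4, 68.4 and 68.3 FPKM in WT and 87, 78.8 and 85.9 FPKM in cKO. The sum was higher in every cKO library, with Fzd1 going from 29.5% ± 0.259 to 42.7% ± 2.31 of it and Fzd2 from 25.9% ± 1.56 to 17.5% ± 1.23 (SD, n = 3). In WT these receptors were near each other, at 20.5 FPKM for Fzd1 and 18 FPKM for Fzd2, while in cKO they stood at 35.9 and 14.7 FPKM.

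The secreted inhibitors held the largest changes in either direction, with 3 of the 6 tested higher and 1 lower. That is 66.7% called, beside 43.7% of all genes tested and 47.3% of the protein-coding genes tested. Sfrp2, which binds Wnts through a domain like that of the Frizzleds and is typical of stromal cells, was at 128, 125 and 112 CPM in WT and 25.2, 26 and 25.3 CPM in cKO. The cKO libraries lay close together and kept 21% of the WT level (log2 fold change -2.25, SE 0.0614, 95% interval -2.39 to -2.12, edgeR adjusted p = 1.4e-11). On the same scale this was a larger fall than that of Pbrm1 itself. Sfrp1, a protein of the same family, was at 10.8, 12.1 and 12.3 CPM in WT and 38, 31.2 and 38.3 CPM in cKO. All cKO libraries were far above WT, for a mean at 305% of the WT one (log2 fold change 1.61, SE 0.0947, edgeR adjusted p = 3.0e-08).

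Frzb, also known as Sfrp3, rose from 128, 123 and 126 CPM in WT to 159.8, 154 and 164 CPM in cKO without overlap (log2 fold change 0.34, SE 0.0446, edgeR adjusted p = 4.2e-05). Sfrp4 was not called (log2 fold change -0.04, 95% interval -0.36 to 0.28), with a cKO spread from 14.3 CPM in replicate 2 to 24.6 CPM in replicate 3. The family as a whole shrank and changed its leading member. Its summed level was 106, 104 and 99.1 FPKM in WT and 75.1, 70.3 and 77 FPKM in cKO. Sfrp2, the inhibitor with the highest level per length in WT, went from 54.8% ± 1.79 of that sum to 16% ± 1.04, Frzb from 37.8% ± 1.49 to 66.4% ± 1.18, and Sfrp1 from 2.61% ± 0.266 to 11% ± 0.754 (SD, n = 3). In FPKM, the fall of Sfrp2 from 56.6 to 11.9 was larger than the gains of Frzb (38.9 to 49.2) and Sfrp1 (2.68 to 8.19) together.

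**Figure D3:**
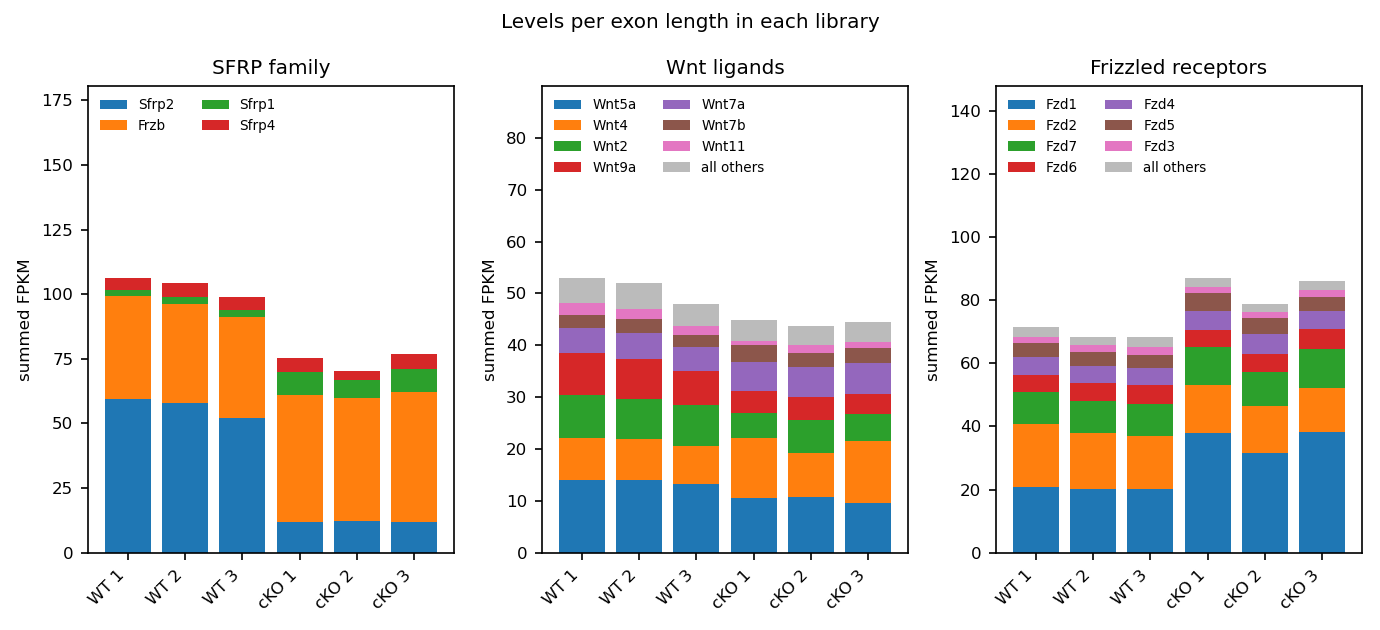
Level per exon length (FPKM, y axis from 0) summed over the SFRP family, the Wnt ligands and the Frizzled receptors in each library (x axis), with coloured segments for the members and grey for those of lowest level. The Sfrp2 segment shrinks from a mean of 56.6 to 11.9 FPKM, and the Fzd1 segment grows from 20.5 to 35.9 FPKM.

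In the Dickkopf family, Dkk3 was at 40.8, 46.6 and 43.4 CPM in WT and 70.5, 62.7 and 66.8 CPM in cKO. Dkk3 is a divergent member, without the clear action on Lrp6 of Dkk1, and all of its cKO libraries were above WT controls (log2 fold change 0.61, SE 0.064, edgeR adjusted p = 5.5e-06). Dkk2, which does bind Lrp6, was not called (log2 fold change 0.19, 95% interval -0.03 to 0.40), with only cKO replicate 2, at 19.4 CPM, well above the WT libraries at 14.7 to 14.9 CPM. Dkk1, with at most 3 counts, Wif1, with 2 to 7 counts, and Dkk4 and Sfrp5, without any, did not pass the filter.

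In the R-spondin axis, 6 of 9 genes passed the filter, with 1 higher and 2 lower, or 2 higher without cKO replicate 2, when Lgr6 was called. With all libraries the share called was 50%, beside 43.7% of all genes tested and 47.3% of the protein-coding genes tested. Rspo3, an R-spondin known for vessel development and as a stromal support of epithelial stem cells, was at 4.96, 4.17 and 4.92 CPM in WT and 11.2, 12.9 and 10.6 CPM in cKO. All cKO libraries exceeded WT, for a mean at 247% of the WT one (log2 fold change 1.31, SE 0.123, edgeR adjusted p = 2.0e-06). Rspo1, an R-spondin needed for ovary development, fell from 7.45, 7.75 and 8.25 CPM to 6.19, 5.78 and 5.4 CPM, also without overlap (log2 fold change -0.43, SE 0.115, edgeR adjusted p = 0.0082). Per length, Rspo1 was above Rspo3 in WT (4.03 ± 0.211 and 1.52 ± 0.144 FPKM), whereas in cKO their means were in the other order (2.99 ± 0.202 and 3.74 ± 0.389 FPKM).

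Znrf3, a membrane ligase that removes Frizzleds from the surface and is itself a Wnt target, was lower in cKO (log2 fold change -0.41, edgeR adjusted p = 0.00304), while its partner Rnf43, at 31 to 44 counts, was not called (0.33, 95% interval -0.09 to 0.74). Of the R-spondin receptors, Lgr6 had the highest level per length of this axis, at 26.4 ± 0.909 FPKM in WT and 28.5 ± 1.4 FPKM in cKO (SD, n = 3). Its CPM were 182, 187 and 174 in WT and 206, 190.0 and 189 in cKO, which did not overlap, and it was not called (log2 fold change 0.11, SE 0.0488, edgeR adjusted p = 0.0898). Lgr4 was not called (log2 fold change 0.09), and Lgr5, with 1 to 11 counts, Rspo2, with at most 1, and Rspo4, with at most 2, did not pass the filter.

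For β-catenin and its partners, 2 of 5 genes were called, both lower, a share of 40% that is not above the 43.7% over all genes. Ctnnb1, which encodes β-catenin, had the highest level per length of all members, at 156 ± 3.09 FPKM in WT and 133 ± 1.82 FPKM in cKO (SD, n = 3). In CPM it was 798, 808 and 829.7 in WT and 679, 688 and 698 in cKO, a modest fall with no overlap (log2 fold change -0.24, SE 0.0411, edgeR adjusted p = 0.000386). Of its exon bases, 0.443% overlap the exon of the microRNA gene Mir7090. Tcf7, a TCF factor that is itself induced by the pathway, was at 8.27, 8.07 and 6.97 CPM in WT and 5.34, 3.98 and 4.95 CPM in cKO. All cKO libraries were below WT controls (log2 fold change -0.71, SE 0.138, edgeR adjusted p = 0.000937). Lef1, at 17 to 40 counts, had a log2 fold change of -0.49 with a 95% interval of -1.01 to 0.03 and was not called, and neither were Tcf7l1 (-0.12) and Tcf7l2 (0.06).

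The feedback genes went in opposite directions. Axin2, a scaffold of the β-catenin destruction complex and the most widely used readout of β-catenin signaling, was at 20.4, 20.7 and 18 CPM in WT and 13.8, 13.1 and 12.7 CPM in cKO. Its cKO libraries were all below WT, at 66.9% of the WT mean (log2 fold change -0.58, SE 0.0865, edgeR adjusted p = 0.000118). Nkd1, which binds Dishevelled and limits signaling, was at 12.4, 11.6 and 10 CPM in WT and 19.5, 15.1 and 17.6 CPM in cKO. Its cKO libraries were all above WT controls (log2 fold change 0.62, SE 0.112, edgeR adjusted p = 0.000577). On the FPKM scale Axin2 led in WT (3.58 ± 0.274 and 2.49 ± 0.268) and Nkd1 in cKO (2.39 ± 0.107 and 3.82 ± 0.49).

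Beyond these members, 80 other genes of the pathway were tested in 5 lists and 44 were called, 20 higher and 24 lower. The share called was 43.7% among all genes tested and 47.3% among the protein-coding genes tested. By list, 38.9% were called for cytoplasmic signaling, 57.1% for nuclear cofactors and 50% for secretion and extracellular control. For the planar polarity branch the share was 56.2%, and for other target genes 78.6%. For cytoplasmic signaling, 1 of 18 was higher and 6 were lower, and the median was -0.09 on the log2 scale. The gene that rose was Amer1, a membrane partner of the destruction complex (0.49), and the largest falls were those of Dvl3, a Dishevelled (-0.34), Csnk1g1, a kinase that phosphorylates Lrp6 (-0.32), and Tnks, which marks Axin for destruction (-0.30). The count rested on single libraries: only 2 genes were lower without WT replicate 2 (Csnk1g1 and Tnks) and 3 without WT replicate 3, while Dvl3 was lost without WT replicate 2 or cKO replicate 3. In the list of nuclear cofactors, 4 of 14 were higher and 4 lower, with 2 lower when WT replicate 1, WT replicate 2 or cKO replicate 3 was left out. Pygo1, a co-activator (0.77), and Ctnnbip1, which keeps β-catenin from TCF factors (0.35), rose, while Tle3 and Aes of the Groucho family fell (-0.34 for each).

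Among genes for Wnt secretion and extracellular control, 5 of the 18 tested were higher and 4 lower. Only 3 were higher with DESeq2, without WT replicate 2 or without cKO replicate 3, when the small rises of Wls (0.13) and Notum (0.22) were not called. Sost encodes sclerostin, an inhibitor that binds Lrp5 and Lrp6, and it was at 1.65, 1.39 and 1.23 CPM in WT and 0.337, 0.424 and 0.193 CPM in cKO. These were 21 to 28 counts in WT and 3 to 8 in cKO, a low level at which all cKO libraries were nevertheless below WT controls (log2 fold change -2.11, SE 0.343, edgeR adjusted p = 0.000241). Adgra2 and Reck form the co-receptor that is selective for Wnt7a and Wnt7b, and they rose side by side. Adgra2 was at 151, 142 and 137 CPM in WT and 225, 221 and 224 CPM in cKO (log2 fold change 0.64, SE 0.0471, edgeR adjusted p = 2.3e-07). Reck was at 18, 19.3 and 19.7 CPM in WT and 31.5, 26.9 and 30 CPM in cKO (log2 fold change 0.63, SE 0.0782, edgeR adjusted p = 2.4e-05). Neither gene had overlapping groups, and Gpc1, a glypican of the cell surface, was lower (-0.49).

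In the planar polarity branch, which orients cells without β-catenin, 4 of the 16 tested were higher and 5 lower. The lower calls numbered 3 with DESeq2, with library size as the only scaling, or without WT replicate 3, cKO replicate 2 or cKO replicate 3. Prickle2 (0.77) and Prickle1 (0.52), cytoplasmic core polarity proteins, rose, and Ankrd6, which binds Dishevelled (-0.58), and Daam2, a formin that links Dishevelled to actin (-0.51), fell. Other target genes of the β-catenin branch had 6 of the 14 tested higher and 5 lower, and their median was 0.12 on the log2 scale. Ccn5 fell from 6.38, 9.68 and 7.73 CPM to 2.59, 1.91 and 2.77 CPM (log2 fold change -1.73, SE 0.189, edgeR adjusted p = 8.0e-06). Ccn4, another matricellular protein, fell from 117, 115 and 115 CPM to 47.7, 76.3 and 46.5 CPM, least in cKO replicate 2 (log2 fold change -1.02, SE 0.133, edgeR adjusted p = 3.8e-05). Tnfrsf19, a receptor of the tumor necrosis factor family, and Sox9, a transcription factor, went the other way (1.29 and 0.99). Target genes did therefore not move together, as Axin2, Tcf7, Ccn5 and Ccn4 were lower and Nkd1, Tnfrsf19 and Sox9 higher.

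**Figure D4:**
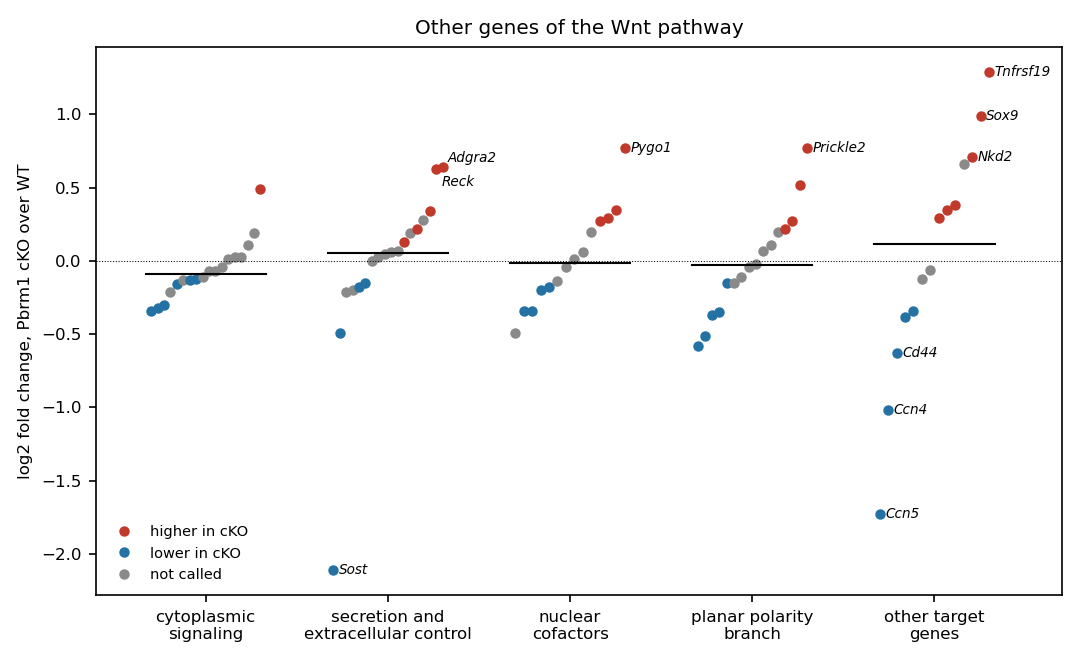
Log2 fold change (y axis, Pbrm1 cKO over WT) of the 80 tested genes in the 5 lists of other Wnt pathway genes (x axis), 1 point per gene coloured by call at an adjusted p under 0.05, with a line at each list's median. Medians lie between -0.09 and 0.12, and the points farthest from 0 are Sost (-2.11), Ccn5 (-1.73) and Tnfrsf19 (1.29).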

How the data were processed

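The authors deposited whole-number read counts per gene for 6 libraries. Per the file headers and the study's methods, reads were trimmed with cutadapt, aligned with HISAT2 to GRCm38 and counted over GENCODE M18 exons, reverse-stranded, with featureCounts 1.6.4. Reads mapping to several places or genes were left out, which lowers near-identical genes. Symbols came from GENCODE M21 and covered 54165 of 54232 genes.

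Counts were tested with edgeR 4.0.16 in R 4.3.3 (filterByExpr, TMM, two-sided quasi-likelihood F test) with Benjamini-Hochberg adjustment over 15376 genes and a threshold of 0.05. The SE of a log2 fold change is its size over the square root of F, and intervals are 95%. CPM use TMM library sizes, and FPKM are CPM per 1000 exon bases. Every pair of libraries of a group differed beyond sampling noise. The reads carried no molecular identifiers, so the floor covers counting error only.

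Members, pathway lists and markers were chosen with earlier results of these data known. Values in every library were given for members called with an absolute log2 fold change of at least 0.5, the member of each role with the highest level per length, and others where the text turns on them. From each pathway list the 4 called genes with the largest changes were named. Alternatives were DESeq2 1.42.0, limma-voom (limma 3.58.1), 3 other scalings, 2 other filters, 2 stricter thresholds, a block for replicate number, and fits without each library in turn. Replicate numbers did not pair the libraries. Promoter windows are those of RefSeq on GRCm38.p6, whose start differed from the table's for some genes.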

Additional observations from a re-analysis of the deposited data

How the results depend on the processing

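The count of 27 Wnt genes called ran from 25 (DESeq2) to 29 (library size only) over the alternatives that kept all libraries and the threshold, and from 26 to 32 when libraries were left out in turn, with 32 without cKO replicate 2. With an absolute log2 fold change of at least 0.5 also required, 15 Wnt genes and 2585 of all genes were called, against 27 and 6723. Of the 27, 24 were called under all 14 alternatives, and Wnt7a, Fzd5 and Fzd9 were each lost in at least 1. Lgr6, Wnt5b, Wnt7b, Lrp5 and Ryk gained a call without cKO replicate 2, and Wnt5b, Wnt7b and Ryk also under 1 other alternative each. The other 44 pathway genes called numbered from 32 to 47. The median log2 fold change of the Wnt genes tested, 0.02, lay between -0.038 and 0.066 with a library left out and was -0.028 with no low-count filter. It lay close to that of all genes, with no test between them, and no direction is read from it.

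The log2 fold change changed sign only for genes that were not called. These were Porcn (-0.01 with limma-voom, -0.03 without cKO replicate 1, -0.11 without cKO replicate 3, up to 0.20 without cKO replicate 2), Fzd8 (-0.04 without WT replicate 2, -0.01 without cKO replicate 1, -0.04 without cKO replicate 3, up to 0.11 without cKO replicate 2), Fzd6 (-0.04 without cKO replicate 3 to 0.07 without WT replicate 3), Fzd3 (0.01 without WT replicate 3, down to -0.16 without WT replicate 1), Tcf7l2 (-0.01 without cKO replicate 1 to 0.18 without cKO replicate 3) and Sfrp4 (0.02 without WT replicate 2 and 0.17 without cKO replicate 2, down to -0.19 without cKO replicate 3). The cause was not tested.

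Libraries with the same replicate number did not deviate together (correlations from -0.0243 to 0.0928). With the replicate block, 27 Wnt genes, 6908 of all genes and 47 other pathway genes were called, and Pbrm1 kept a log2 fold change of -1.94. The 16 Wnt genes that did not pass the filter had too few counts, or none, for a test at this depth. Those at 17 to 44 counts, such as Lef1 and Rnf43, have wide intervals.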
